A study of Rattus norvegicus with 5 samples.

Results

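Heat shock proteins and their co-chaperones were examined in the livers of 2 rat strains, PD and the congenic PD.SHR4. Members were taken by name alone, as the probe sets with a single symbol in the platform annotation that belongs to the Hspa, Hspb, Hspd, Hspe, Hsph, Hsp90a, Dnaja, Dnajb, Dnajc, Cct, Bag, Fkbp or Pdia genes, without Hspa5 and Dnajb9. The rule found 51 genes, each with 1 probe set, among the 7589 genes named by a single symbol and the 8797 probe sets in all. It takes symbols by their first letters, so it also holds Hspbp1 and Hspbap1, which are binding proteins and not small heat shock proteins. A further 3 probe sets carry a symbol of these families together with other genes, among them the inducible Hsp70 genes, and were not read for that reason.

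Molecular chaperones hold, fold and refold other proteins. In the cytosol, J-proteins bring clients to Hsp70, nucleotide exchange factors such as the Hsp110 and Bag proteins release them, and Hsp90, the small heat shock proteins and the ring-shaped chaperonin act beside them. Many of these genes are switched on by the heat shock factor HSF1, whose activity in liver follows the daily rhythm of body temperature. In the endoplasmic reticulum a separate set, with the protein disulphide isomerases of the Pdia family, folds secreted proteins such as those the liver releases into plasma, and answers to the unfolded protein response.

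Both groups were males aged 4 months on standard chow, and RNA was taken from 8 rats of each strain. PD carries its own chromosome 4, whereas PD.SHR4, named PD.SHR4a in the series text, carries a chromosome 4 segment of the Cd36-deficient SHR strain on the PD background, so the strains may differ at any gene of that segment and not at Cd36 alone. The series text says that cDNA was pooled by strain and put on 3 PD and 2 PD.SHR4 arrays. Nothing states that arrays of a strain held different rats, so the p-values given here measure the spread between arrays, which may be technical. The labels and the series text state neither the hour of killing nor the feeding state. In bulk tissue, fewer cells of a type and less RNA per cell cannot be told apart.

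The array medians lay between 5.21 and 5.38 on the log2 scale of the deposited values. Of 12 hepatocyte markers, 10 were measured, at a mean level of 12.56 to 12.58 on PD and 12.52 to 12.54 on PD.SHR4 arrays, near the top of the scale in both strains, and no marker differed past the threshold. The 9 measured macrophage markers had a mean level of 8.76 to 8.92 in PD and 8.44 on both PD.SHR4 arrays, with 8 of 9 differences below 0. The 9 measured lymphocyte markers had 4.81 to 5.07 in PD and 4.24 to 4.26 in PD.SHR4, also with 8 of 9 below 0, and the 8 stellate cell markers 6.18 to 6.62 and 6.10 to 6.13. Without overlap, 7 macrophage, 6 lymphocyte and 3 stellate cell markers were lower and 1 macrophage marker was higher. Of all probe sets, 17.1% were lower and 14.8% higher in this way. Gzmb, a lymphocyte marker, differed most, at -2.01. The erythroid marker Hbb-b1 lay at -0.66 and the cholangiocyte markers Krt19 and Epcam at 0.50 and -0.23. No marker passed the test singly, none of the 8 endothelial markers was measured, and the part of these cells in the results below was not tested. Of the 51 members, 4 lie on chromosome 4 in the GRCr8 gene table, Dnajc2, Fkbp9, Fkbp14 and Pdia4. The sources used here do not give the ends of the SHR segment.

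Promoter windows show which members carry the DNA motif that HSF1 binds, the heat shock element, made of inverted repeats of GAA. RefSeq windows of assembly GRCr8, from 250 bases before to 50 after the annotated start, were matched for 42 of the 51 members. They come from the Brown Norway reference rat and not from the strains studied. The first set is shown because Hsph1, Hspb1 and Hspb8 had the largest differences among members with at least a pair of GAA units. Hspb1 and Hspb8 hold pairs only and not the full element described below. Each line gives the 150 bases before the start with pairs of GAA units in capitals (GAANNTTC or TTCNNGAA, which read the same on both strands).
Hsph1, chr12:10427218-10427367, plus strand: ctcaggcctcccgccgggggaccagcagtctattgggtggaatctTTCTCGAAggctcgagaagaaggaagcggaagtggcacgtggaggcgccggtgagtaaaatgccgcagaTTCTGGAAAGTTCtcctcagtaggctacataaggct
Hspb1, chr12:26432302-26432451, minus strand: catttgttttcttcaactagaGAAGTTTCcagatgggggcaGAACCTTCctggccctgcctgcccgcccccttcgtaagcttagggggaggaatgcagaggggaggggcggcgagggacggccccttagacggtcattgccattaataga
Hspb8, chr12:45837158-45837307, plus strand: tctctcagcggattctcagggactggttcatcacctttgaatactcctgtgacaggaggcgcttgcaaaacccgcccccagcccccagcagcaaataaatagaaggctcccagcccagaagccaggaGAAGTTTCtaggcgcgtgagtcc

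The full element of 3 alternating units (GAANNTTC with a further GAA after 2 bases, on either strand, which contains both pairs) was found in 4 members, Hsph1, Dnaja1, Cct4 and Hspe1. The other three are shown with 30 bases each, positions 1 to 30 in Dnaja1, 16 to 45 in Cct4 and -70 to -41 in Hspe1, where 1 is the first base of the transcript and -1 the base before it, again with the units in capitals. Hspe1, chosen after its values were seen, holds 4 units in a row.
Dnaja1, chr5:60638404-60638433, plus strand: ggccgggcgGAACTTTCCAGAAcgctcggt
Cct4, chr14:101193072-101193101, plus strand: cggcgtcgctTTCTGGAAGGTTCgtggagg
Hspe1, chr9:64084257-64084286, plus strand: ctcggTTCTAGAACCTTCCGGAAggccccg

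These 4 are 9.52% of the 42 members with a window, and 0.736% of all 27457 RefSeq windows hold the same 3 units. The pair GAANNTTC was found in 12 of the 42, 28.6%, and in 8.34% of all windows, and TTCNNGAA in 8 members and in 8.49% of all windows. Among members with either pair, Dnajc18, Fkbp14 and Hspa2 had differences below 0, at -0.28, -0.29 and -0.16, and the others lay above it. Among members of the endoplasmic reticulum, Fkbp10, Pdia3 and Pdia6 were not matched to a window. Of the 8 that were, none held the 3-unit element and 1 held a pair. Dnajc3 was the member with the stress element of that compartment (CCAAT and CCACG with 9 bases between, on either strand), which 21 of all 27457 windows hold, and its 150 bases before the start are shown with that element in capitals.
Dnajc3, chr15:102432517-102432666, plus strand: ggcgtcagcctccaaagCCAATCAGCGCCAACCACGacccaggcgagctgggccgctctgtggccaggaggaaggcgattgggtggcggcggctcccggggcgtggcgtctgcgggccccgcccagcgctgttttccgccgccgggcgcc
The E-box that clock factors bind, CACGTG, was found in 5 members, Hsph1, Hspa9, Dnajc16, Dnajc25 and Hspbap1. These are 11.9% of the 42 against 6.65% of all windows and 7.55% of the 6222 windows of array genes. Of these 6222, 0.595% held the 3-unit element, 6.75% GAANNTTC, 7.55% TTCNNGAA and 0.161% the stress element of the endoplasmic reticulum. A match describes the letters of the window and not a bound site.

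Of the 51 members, 1 rose in PD.SHR4 and none fell (limma, adjusted p under 0.05 over all 8797 probe sets). Over the whole array, 0.932% of probe sets passed, made up of 0.273% that were higher and 0.659% that were lower. At an unadjusted p under 0.05 there were 20 members, 39.2%, beside 13.8% of all probe sets. Of these 20, 12 were higher, 23.5% of members beside 5.84% of all, and 8 lower, 15.7% beside 7.92%. Values of the strains did not overlap in 31 members, 60.8% beside 31.9% of all, with 17 higher (14.8% of all probe sets) and 14 lower (17.1% of all). Members were brighter than most probe sets, with array medians of 7.26 to 7.75 beside 5.21 to 5.38 for all. With the dimmest 25% of probe sets left out, 43.8% of members and 17.0% of all had an unadjusted p under 0.05 (limma). Shares at like brightness were not compared. The median difference was 0.03 over members and 0.00 over all probe sets, with 27 members above 0 and 24 below it, Fkbp10 among the latter at a rounded 0.00. The cytosolic chaperonin and A-type J-protein genes and the only Hsp90 member, Hsp90ab1, lay above 0 and the Pdia genes below it, as the plot of differences by family shows.

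**Figure D1:**
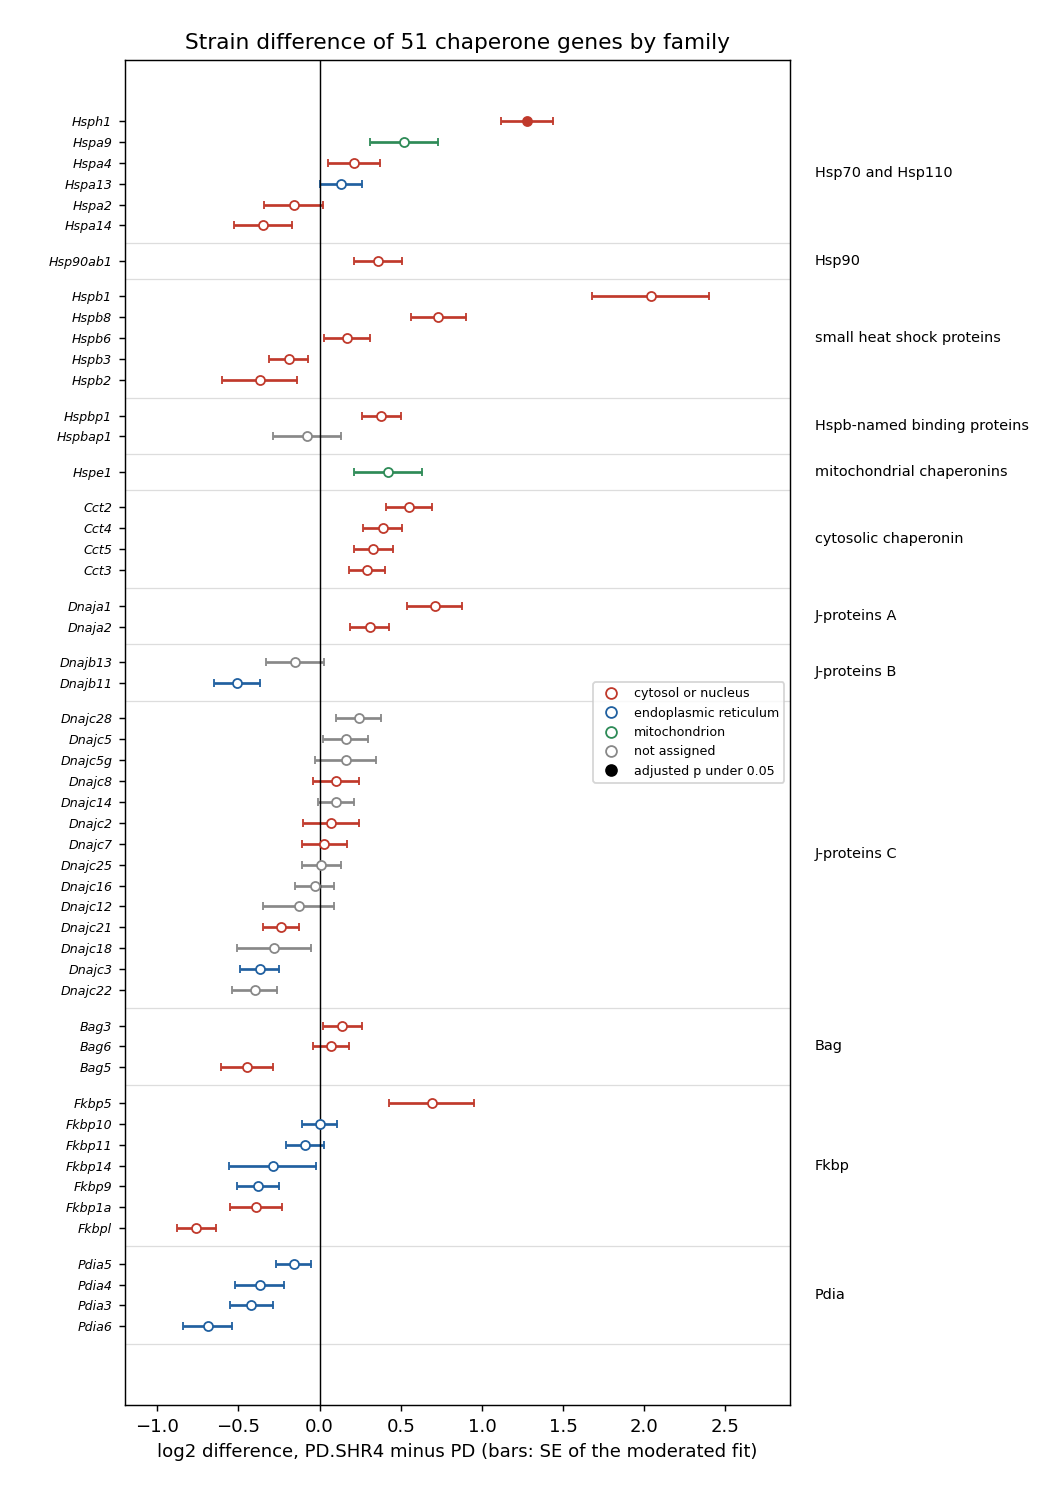
Difference between the strains for each of the 51 genes, as PD.SHR4 minus PD on the log2 scale (horizontal axis), grouped by family, with bars of 1 SE of the moderated fit. Colours give the compartment. Hsph1 is the filled point, past the threshold at 1.28, all 4 Cct genes lie above 0 and all 4 Pdia genes below it.

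Hsph1, an Hsp110 protein that releases nucleotide from Hsp70 and is strongly induced by heat, measured 7.42, 7.42 and 7.80 on the PD arrays and 8.79 and 8.86 on the PD.SHR4 arrays. Both congenic arrays were higher than every PD array, by at least 1.00. The gene rose 2.43-fold, or by 1.28 ± 0.16 on the log2 scale (SE; limma, adjusted p = 0.0392; higher on 2 of 2 congenic arrays). The call was lost with any array left out, at log2 differences of 1.22 to 1.41. The adjusted p of Hsph1 (limma) was 0.0884, 0.0656 and 0.0560 without PD array 1, 2 or 3. Calls over the whole array also fell in these fits, from 82 to 28, 55 and 18. Without either PD.SHR4 array, 1 congenic array is left and its spread cannot be estimated.

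The other Hsp70 and Hsp110 genes did not pass. Hspa9, the Hsp70 that pulls proteins into mitochondria, measured 9.64, 10.22 and 10.23 in PD and 10.55 and 10.56 in PD.SHR4, a log2 difference of 0.52 ± 0.21 (SE; adjusted p = 0.354). Its arrays did not overlap, and PD array 1 stood below the other PD arrays. Hspa4, a relative of Hsph1, differed by 0.21 (95% confidence interval -0.19 to 0.62). Hspa14, an Hsp70 found at the ribosome, differed by -0.35 (-0.80 to 0.11), Hspa13 of the endoplasmic reticulum by 0.13 and Hspa2, known from the testis, by -0.16. Hspa4 and Hspa9 were higher on both congenic arrays than on any PD array and Hspa14 was lower, while the arrays of Hspa13 and Hspa2 overlapped. Hsp90ab1, the constitutive cytosolic Hsp90, measured 10.92, 11.27 and 11.09 in PD and 11.40 and 11.51 in PD.SHR4, without overlap, at a difference of 0.36 ± 0.15 (SE; adjusted p = 0.367).

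Small heat shock proteins hold unfolded clients without ATP, and 2 of the 5 measured had differences above 0.7 while none passed. Hspb1, the Hsp27 gene, measured 6.46, 7.03 and 6.07 in PD and 8.12 and 8.99 in PD.SHR4. Both congenic values lay above every PD value, by at least 1.10, and the SD of the 2 congenic arrays was 0.615 beside 0.481 for the 3 PD arrays. Its log2 difference of 2.04 ± 0.36 (SE), 4.11-fold, was the largest of the 51 and had an adjusted p of 0.0784 (limma). With the replicate number as a block, PD array 3 has no partner and does not enter the difference. Little is left in that fit to estimate a gene's own spread, so its p leans on the spread of other probe sets. The block fit gave Hspb1 a difference of 1.82 (limma, adjusted p = 0.00247), although the numbers were not taken to pair arrays. Array weights gave 2.39 (adjusted p = 0.00996), and these were the 2 of 11 alternative settings in which Hspb1 passed. With single arrays left out its adjusted p was 0.0715 to 0.415, at differences of 1.61 to 2.48. Hspb8, which works with Bag3 to send clients to autophagy, measured 8.05, 8.42 and 8.45 in PD and 8.93 and 9.14 in PD.SHR4. Its difference was 0.73 ± 0.17 (SE; adjusted p = 0.140), without overlap. Hspb6 differed by 0.17 and the muscle genes Hspb2 and Hspb3 by -0.37 and -0.19. Hspb3 was dim, under the lower quartile on all 5 arrays.

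Hspbp1, which releases nucleotide from Hsp70, measured 7.29, 7.40 and 7.39 in PD and 7.68 and 7.79 in PD.SHR4, a difference of 0.38 ± 0.12 (SE; adjusted p = 0.227). Hspbap1 differed by -0.08 with overlapping arrays. Of the Bag proteins, which also act on Hsp70, Bag3 differed by 0.14 (95% confidence interval -0.17 to 0.45) and Bag6, which guards membrane proteins on their way to insertion, by 0.07. Bag5 measured 7.17, 7.09 and 7.36 in PD and 6.94 and 6.58 in PD.SHR4, a difference of -0.45 ± 0.16 (SE; adjusted p = 0.295). Both congenic arrays were lower than every PD array for Bag5, whereas those of Bag6 overlapped.

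All 4 measured subunits of the cytosolic chaperonin, the ring complex that folds actin and tubulin, were higher on both congenic arrays than on any PD array, and none passed the test. Of all probe sets, 14.8% were higher in the same way. Cct2 measured 8.96, 9.18 and 9.23 in PD and 9.62 and 9.74 in PD.SHR4, a difference of 0.55 ± 0.14 (SE; adjusted p = 0.158). Cct4 measured 9.55, 9.75 and 9.74 in PD and 10.06 and 10.08 in PD.SHR4, a difference of 0.39 ± 0.12. Cct5 and Cct3 differed by 0.33 ± 0.12 and 0.29 ± 0.11. In fold terms the 4 subunits ranged from 1.22-fold to 1.47-fold higher. Hspe1, the lid of the mitochondrial chaperonin, measured 7.07, 7.68 and 7.17 in PD and 7.60 and 7.86 in PD.SHR4. Its arrays overlapped, at a difference of 0.42 ± 0.21 (SE; adjusted p = 0.473).

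**Figure D2:**
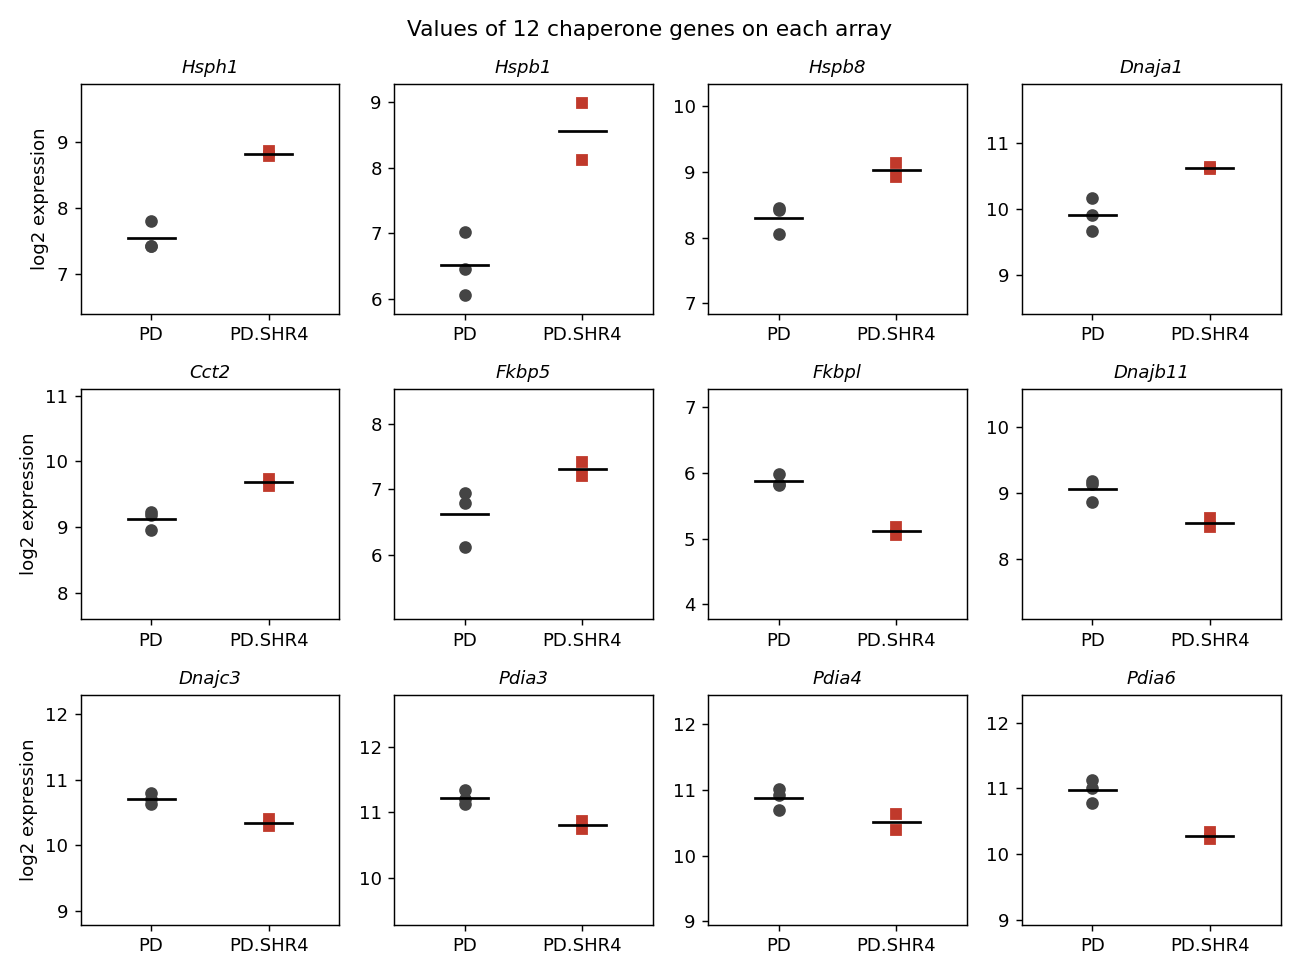
Log2 expression of 12 members on each array (vertical axis, the same span of 3.5 in every panel) for PD (circles) and PD.SHR4 (squares), with the group mean as a line. The congenic arrays lie above all PD arrays for Hsph1, Hspb1, Hspb8, Dnaja1, Cct2 and Fkbp5 and below them for the other 6 genes.

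The 18 J-proteins went both ways, with 10 differences above 0 and 8 below, a median of 0.02 and none past the test. Both A-type J-proteins, general Hsp70 partners of the cytosol, were higher without overlap. Dnaja1 measured 9.67, 10.16 and 9.90 in PD and 10.60 and 10.64 in PD.SHR4, a difference of 0.71 ± 0.17 (SE; adjusted p = 0.148). Dnaja2 differed by 0.31 ± 0.12 (SE; adjusted p = 0.332). Dnajb11 and Dnajc3, the J-proteins assigned here to the endoplasmic reticulum, lay below 0. Dnajc14, Dnajc16, Dnajc18 and Dnajc25, at 0.10, -0.03, -0.28 and 0.01, were among the J-proteins given no compartment. Dnajb11, which delivers secretory clients to the Hsp70 of that compartment, measured 8.87, 9.13 and 9.18 in PD and 8.48 and 8.62 in PD.SHR4, a difference of -0.51 ± 0.14 (SE; adjusted p = 0.196). Dnajc3, an inhibitor of the stress kinase PERK and a luminal co-chaperone, measured 10.63, 10.80 and 10.70 in PD and 10.29 and 10.40 in PD.SHR4. Its difference was -0.37 ± 0.12 (SE; adjusted p = 0.257), and neither gene overlapped between the strains.

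Among the remaining 14 J-proteins the differences ran from -0.40 for Dnajc22 to 0.24 for Dnajc28. Dnajc22 measured 9.97, 10.32 and 10.08 in PD and 9.68 and 9.76 in PD.SHR4, a difference of -0.40 ± 0.14 (SE; adjusted p = 0.299). Dnajc21, which acts in ribosome assembly, differed by -0.24 (95% confidence interval -0.51 to 0.04). Dnajc7 and Dnajc25 lay at 0.03 and 0.01. Dnajb13, known from sperm tails, and Dnajc5g differed by -0.15 and 0.16 with overlapping arrays, and Dnajc5g was under the lower quartile on all 5 arrays. The C-type J-proteins as a class, 8 above 0 and 6 below, thus showed no common direction.

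Fkbp proteins are peptidyl-prolyl isomerases, some of which sit on Hsp90. Of 7 measured, 1 had a difference above 0, 5 had one below, Fkbp10 lay at 0.00 and none passed. Fkbp5, an Hsp90 partner that dampens the glucocorticoid receptor and is induced by glucocorticoids, measured 6.94, 6.13 and 6.80 in PD and 7.42 and 7.20 in PD.SHR4. It was higher without overlap, at 0.69 ± 0.26 (SE; adjusted p = 0.325), and PD array 2 stood below the other PD arrays. Fkbpl, a further Hsp90 partner, measured 5.83, 5.99 and 5.81 in PD and 5.18 and 5.06 in PD.SHR4. It had the lowest difference of the 51, -0.76 ± 0.12 (SE; adjusted p = 0.0671), without overlap. Fkbp1a, the FKBP12 gene, differed by -0.39 ± 0.16 and Fkbp9 of the endoplasmic reticulum by -0.38 ± 0.13, both without overlap. Fkbp14, Fkbp11 and Fkbp10 differed by -0.29, -0.09 and 0.00 with overlapping arrays. The 2 Hsp90 partners Fkbp5 and Fkbpl thus lay at opposite ends of the family.

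All 4 protein disulphide isomerases measured were lower on both congenic arrays than on any PD array, and none passed the test. Of all probe sets, 17.1% were lower in the same way. Pdia6 measured 10.78, 11.12 and 11.01 in PD and 10.23 and 10.33 in PD.SHR4, a difference of -0.69 ± 0.15 (SE; adjusted p = 0.109). Pdia3, which forms disulphides in glycoproteins held by calnexin and calreticulin, measured 11.13, 11.34 and 11.20 in PD and 10.74 and 10.86 in PD.SHR4, a difference of -0.42 ± 0.13 (SE; adjusted p = 0.221). Pdia4, the member of the family on chromosome 4, measured 10.69, 11.01 and 10.93 in PD and 10.39 and 10.63 in PD.SHR4, a difference of -0.37 ± 0.15 (SE; adjusted p = 0.374). Pdia5 differed by -0.16 ± 0.11. The gap between the strains' nearest arrays was widest in Pdia6, at 0.45, and narrowest in Pdia4, at 0.06.

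Members were sorted by the compartment in which the protein is known to act. This grouping was made after the values were seen and is given as a description. Those assigned to the cytosol or nucleus lay mostly above 0 and those assigned to the endoplasmic reticulum mostly below it. Of 27 members of the cytosol or nucleus, 19 lay above 0 and 8 below, with a median of 0.17, and the strains' arrays did not overlap in 14 as higher and 6 as lower, where 14.8% and 17.1% of all probe sets did so. Of 11 members of the endoplasmic reticulum, 10 lay below 0, with a median of -0.37, and 7 did not overlap, all lower, beside the same 17.1%. The 10 include Fkbp10, which lay at 0.00 when rounded. Hspa13 was the member above 0. Both mitochondrial members lay above 0. A further 11 members were not assigned a compartment, with 5 above 0, 6 below and a median of -0.03. The counts depend on which genes were assigned, and an unassigned member may still act in one of these compartments. Dnajc14, Dnajc16, Dnajc18 and Dnajc25, all unassigned, lay at 0.10, -0.03, -0.28 and 0.01, each above the median of the endoplasmic reticulum members. Centring each array on its median, which moved the median of all probe sets to 0.05, gave 9 of 11 below 0 with a median of -0.31 and 19 of 27 above 0 with a median of 0.22. Over all the fits tried the median lay between -0.45 and -0.30 for the endoplasmic reticulum and between 0.12 and 0.23 for the cytosol or nucleus.

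**Figure D3:**
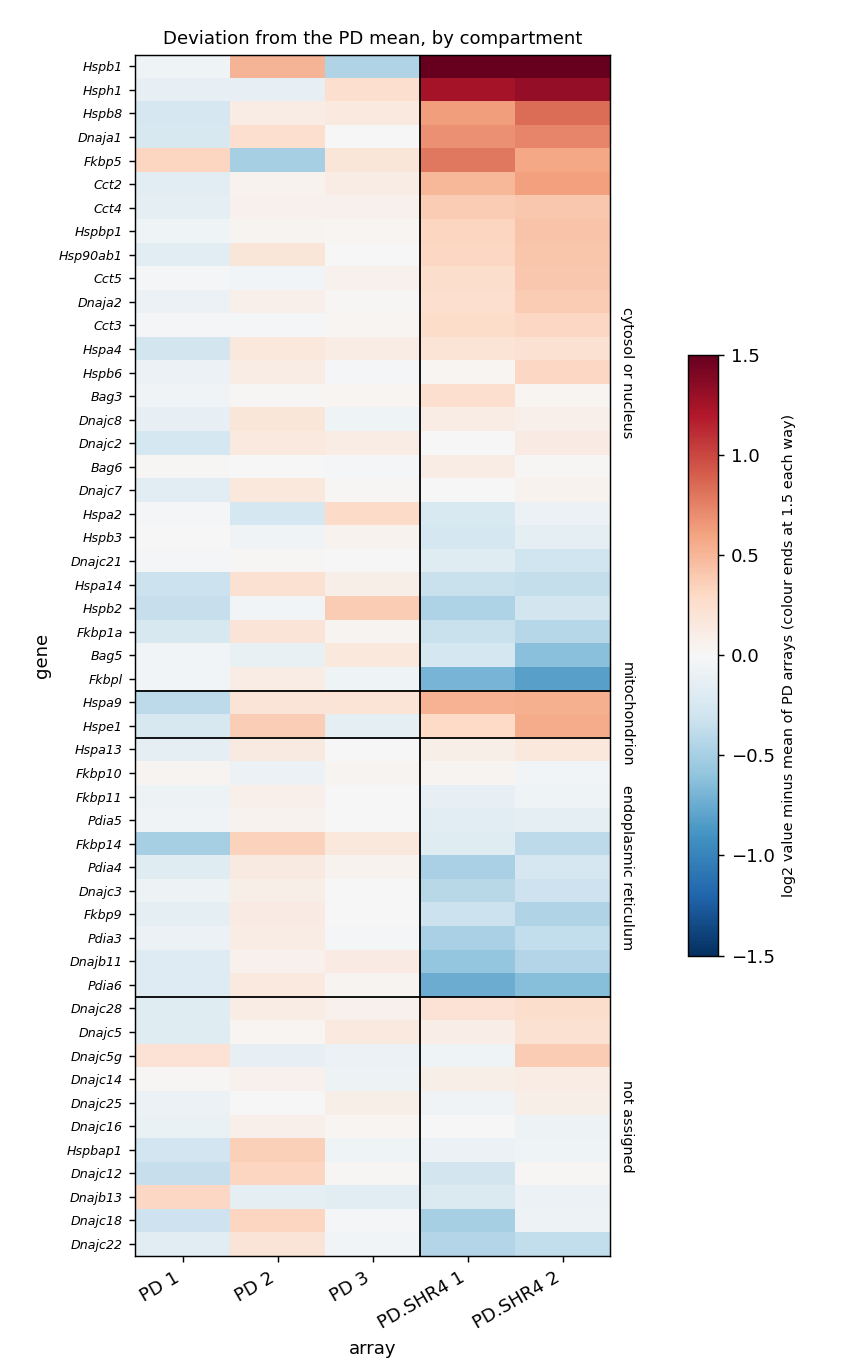
Log2 value of each of the 51 members (rows, by compartment) on each of the 5 arrays (columns) minus the mean of the PD arrays, with colours that end at 1.5 each way. Both PD.SHR4 columns are red at the top, from Hspb1 and Hsph1 to the Cct genes, and blue in the block of the endoplasmic reticulum, where Pdia6 is lowest at a mean of -0.69.

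The partners of these families outside the naming rule were read from lists of which 42 of 72 genes were measured. Of 8 partners of Hsp70 and Hsp90, 7 lay above 0, with a median of 0.22, and none passed. The other, Trap1, differed by -0.06 with overlapping arrays. Stip1, the adaptor that joins Hsp70 to Hsp90, measured 8.00, 8.41 and 8.43 in PD and 9.20 and 9.49 in PD.SHR4, a 2.10-fold difference of 1.07 ± 0.18 (SE; adjusted p = 0.0730). Stip1 passed with the replicate block, the trended robust fit, the filter on dim probe sets, the further quantile normalisation and array weights, and did not pass after median centring or when any 1 array was left out. Cdc37l1 differed by 0.48 and Cryab, a small heat shock protein by structure, by 0.47, both without overlap. Hsf2, a heat shock factor, and Hsbp1, a protein that binds such factors, differed by -0.08 and 0.07. Hsf1 was not among the genes read. Both congenic arrays of Stip1 were above every PD array, as for Hsph1 and Dnaja1, whereas the arrays of Hsf2 overlapped.

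Of 11 genes of folding in the endoplasmic reticulum outside the rule, 7 lay below 0, none passed and the median was -0.12. Calr, the calreticulin that presents glycoproteins to Pdia3, measured 11.41, 11.60 and 11.54 in PD and 10.98 and 11.09 in PD.SHR4, a difference of -0.48 ± 0.12 (SE; adjusted p = 0.168). Ppib, a prolyl isomerase, differed by -0.43. Hspa5, the Hsp70 that Dnajb11 and Dnajc3 serve, differed by -0.12 (95% confidence interval -0.41 to 0.17) and Hsp90b1 by -0.04. Dnajb9, another J-protein of that compartment, measured 9.21, 9.11 and 9.44 in PD and 9.74 and 9.79 in PD.SHR4, a difference of 0.51 ± 0.14 (SE; adjusted p = 0.190). The co-chaperones of Hspa5 therefore lay on both sides of 0.

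**Figure D4:**
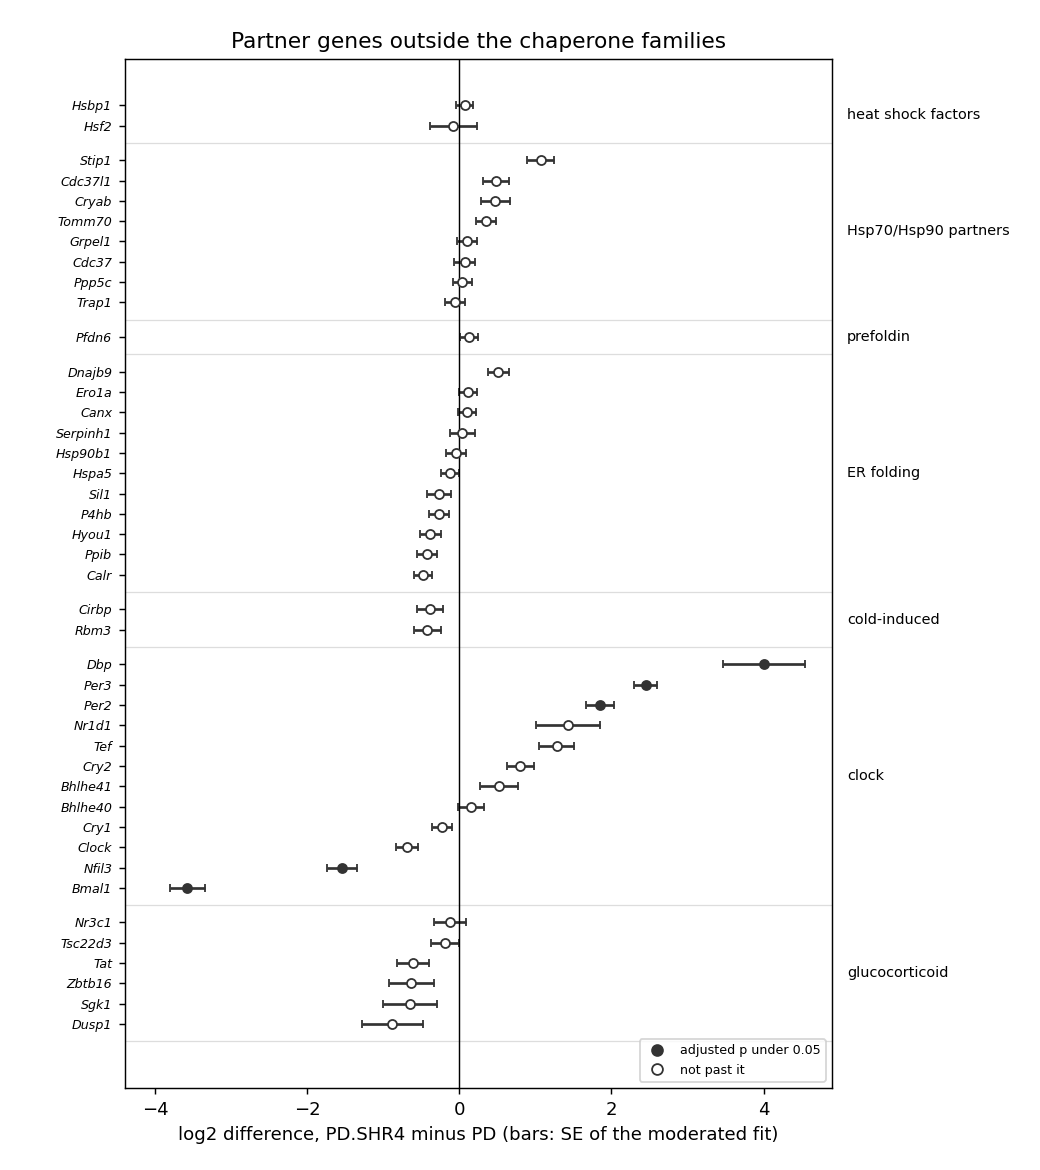
Log2 difference, PD.SHR4 minus PD (horizontal axis), of the measured partner genes by list, with bars of 1 SE and filled points for an adjusted p under 0.05. The filled points are all clock genes, Dbp, Per3 and Per2 above 0 and Nfil3 and Bmal1 below it, and Stip1 is the highest of the Hsp70 and Hsp90 partners at 1.07.

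Cirbp and Rbm3, RNA-binding proteins whose transcripts rise when body temperature falls, were lower on both congenic arrays than on any PD array and did not pass. Cirbp measured 7.36, 7.14 and 6.89 in PD and 6.80 and 6.67 in PD.SHR4, a difference of -0.39 ± 0.17 (SE; adjusted p = 0.396). Rbm3 measured 7.80, 7.32 and 7.35 in PD and 7.11 and 7.04 in PD.SHR4, a difference of -0.42 ± 0.18 (SE; adjusted p = 0.398). Of 12 clock genes, 3 rose, 2 fell and 7 did not pass, with Bmal1 at -3.58 and Dbp at 4.01. The 6 measured genes of the glucocorticoid receptor list, with the receptor Nr3c1 at -0.12, all lay below 0 and none passed. Tat and Sgk1 were lower without overlap, and the arrays of Nr3c1, Tsc22d3, Dusp1 and Zbtb16 overlapped. The congenic arrays lay far apart for Dusp1, at 7.76 and 9.04, and for Zbtb16, at 5.85 and 6.86. Of the 6, Tat, a tyrosine catabolic enzyme, had the smallest p, at -0.61 ± 0.21 (SE; adjusted p = 0.270). Whether temperature, clock phase or glucocorticoids had a part in the chaperone values was not tested.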

How the data were processed

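Liver RNA was measured on Affymetrix Rat Exon 1.0 ST arrays, 3 of PD and 2 of PD.SHR4. The deposited table holds log2 expression values, which the authors computed per the labels with RMA in Expression Console at the core-gene level (the tools RMA and Partek appear in the submitters' processing notes). RMA draws arrays toward one distribution, so a difference is relative to the other probe sets. The sources used here give no versions or genome build, and there are no detection calls. The number of arrays limits the precision.

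Symbols came from GEO's platform annotation, where 7603 probe sets had 1 symbol, 409 several and 785 none, and were updated by gene ID through RefSeq's GRCr8 table (51 of 51 members matched). limma 3.58.1 in R 4.3.3 (lmFit, eBayes, no covariate, two-sided) was fitted to all 8797 probe sets, with Benjamini-Hochberg adjustment over all of them and a threshold of 0.05, and checked on simulated arrays. Confidence intervals are 95% and use the moderated SE. The named genes are the members past the threshold and, per family, the 4 of smallest p and the highest in PD, 33 in all; other genes named were chosen after their values were seen. Members and lists were chosen with earlier results of these data known. Partner lists also name genes past the threshold and the 3 of smallest p. The settings changed in turn were 1 array left out, a block for the replicate number, array weights, centring on the array median, a trended robust fit, a filter on dim probe sets, a further quantile normalisation, the brightest probe set per gene and a limit of 1.5-fold. Protein sequences were not used here.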

Additional observations from a re-analysis of the deposited data

How the results depend on the processing

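The direction of the 33 named members was kept in every alternative fit that measured them, except that Dnajb13 was at 0.01 without PD array 1 and at -0.23 to -0.08 without any other array. Where the strains' arrays did not overlap, leaving out 1 array, the block or array weights could not reverse the sign. The trended robust fit and the dim filter left every difference as it was. A kept direction therefore says little about members chosen largely by small p. The number of members changed, 1 in the main setting, was 2 with the replicate block (Hsph1 and Hspb1), 2 with the dimmest 25% of probe sets left out and 2 after quantile normalisation once more (each time Hsph1 and Fkbpl, at adjusted p of 0.0437 and 0.0479 for Fkbpl), and 9 with array weights, a setting that called 819 probe sets of the whole array. It was 0 without PD array 1, 2 or 3, where the whole array had 28, 55 and 18 calls. Without either PD.SHR4 array the spread of the congenic group cannot be estimated. Over the whole array there were 82 calls in the main setting and 163 with the block. The dim filter gave 149 and quantile normalisation once more 112. The partner genes changed, 5 in the main setting, were 7 with the block, 6 with the trended robust fit, the dim filter or quantile normalisation once more, 5 after median centring and 15 with array weights, and leaving out 1 array gave 0 to 4 of them: 4 without PD array 1, 2 without PD array 2 or PD array 3, and 0 without either PD.SHR4 array, where the lone array was assumed to vary like PD. The cause was not tested. The median difference of members ran from -0.01 to 0.10 over all settings. Same-numbered arrays had deviations correlated at 0.05 and 0.08, so the numbers were not taken to pair arrays. Members at an unadjusted p under 0.05 were 8 without either PD.SHR4 array, 15.7% beside 8.38% and 8.07% of all probe sets, and 9 with the block, 17.6% beside 11.9%. Without detection calls, the dimmest members, Hspb3 and Dnajc5g, carry little information. The same holds for Dnajb13, which lay at 2.51 to 2.64, under the lower quartile, on every array but PD array 1, where it was 3.03.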

Other observations

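Over the whole array, 37 probe sets of 1 symbol had a promoter window with the 3-unit heat shock element, and 26 of them lay above 0, with a median difference of 0.07. Without the 4 chaperone genes, 22 of 33 lay above 0, with a median of 0.05, and 1 of these 33 fell while none rose. Of the 6232 probe sets with a window, 3155 lay above 0, with a median of 0.00. For the pair GAANNTTC outside the chaperones, 201 of 408 lay above 0. Outside the chaperones, 4 of 10 probe sets with the stress element of the endoplasmic reticulum lay above 0, with a median of -0.05. The set was chosen after the values of the chaperones were seen, and no test was made.

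Within PD, array 1 was the lowest of the 3 arrays for 39 of the 51 members, 76.5%, beside 45.1% of all probe sets. PD array 2 was the highest for 32 members, 62.7%, beside 48.2% of all. The upper quartile of all probe sets was also lowest on PD array 1, at 7.38, and highest on PD array 2, at 7.65, within PD. The lower quartile ran the other way, at 2.93 and 2.84. Members lay near the upper quartile, with medians of 7.26 on PD array 1 and 7.42 on PD array 2. Whether members differed in this order from other probe sets of like brightness was not tested. The mean level over members was 7.22 to 7.43 in PD and 7.37 to 7.45 in PD.SHR4.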
